A study of Mus musculus with 8 samples.

Results

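The genes described here were the spliceosome proteins and splicing regulators measured on expression arrays of mouse 2-cell embryos: every gene whose only annotated symbol begins with Sf3a, Sf3b, Snrp, Srsf, Hnrnp or Prpf, together with Lsm2 to Lsm8, Rbm17, U2af1 and U2af2, without Snrpn. They were chosen by name, though with earlier results of these data known. They numbered 67 of the 18193 genes with a probe set of their own, on 184 probe sets. Each sample was RNA from 20 pooled whole embryos: 4 samples labelled Brg1 mutant and 4 labelled wild type. BRG1, encoded by Smarca4, is the ATPase of the BAF chromatin remodelling complexes, and the study's title names the maternal protein and zygotic genome activation. The labels give neither the allele, the strain nor the part of the gene that is changed, and call the samples biological replicates without naming animals, so the p-values cover no more than the spread among these samples. In such whole-embryo RNA, fewer cells of a kind and less RNA per cell cannot be told apart.

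Introns are removed from nuclear RNA by the spliceosome, a machine built on each intron from small nuclear ribonucleoproteins (snRNPs) and many further proteins. Each snRNP carries a small RNA bound by a ring of Sm proteins, or of LSm proteins in the case of U6. Some of the snRNPs mark the splice sites and the branch site before catalysis. SR proteins and hnRNP proteins bind the transcript around these sites and favour or repress their use. The embryo inherits its spliceosome proteins and their mRNAs from the oocyte and starts to make its own when the zygotic genome is switched on, which in the mouse happens mainly at the 2-cell stage.

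Values are MAS5 signals, linear array intensities on which every array has the same trimmed mean. Signals of different probe sets are not comparable with each other, so only samples are compared. Unless another is named, a gene was read on its brightest probe set, the one with the highest mean log2 signal. Of the 67 genes, 65 were bright enough to be tested, by a filter on the mean over all 8 samples. Srsf12 and Prpf40b, an SR protein and a factor related to a yeast U1 snRNP protein, were not tested. Srsf12 had signals of 0.5, 12.4, 6.5 and 5.6 in mutant replicates 1 to 4, against 8.2, 5.6, 0.2 and 9.5 in wild type replicates 1 to 4, under the background bound on all 8 arrays. Prpf40b had signals of 15.9, 58.9, 58.2 and 57.7 in mutant replicates 1 to 4, against 8.7, 18.4, 10.5 and 34.7 in wild type replicates 1 to 4, under the bound on 1 mutant array and 3 wild type arrays.

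The mutated gene gave a mixed check of the labels. The brighter of the probe sets for Smarca4 had signals of 388, 201, 273 and 291 in mutant replicates 1 to 4, against 796, 632, 612 and 661 in wild type replicates 1 to 4, with a log2 change, mutant minus wild type, of -1.26 ± 0.25 (SE; adjusted p = 0.0211), and an adjusted p of 0.0526 to 0.0834 without mutant replicate 3 or 4 or any 1 wild type sample. The other had a log2 change of 0.04 (adjusted p = 0.963), and which part of the gene either covers was not examined. Mutant replicates 1 and 2 and mutant replicates 3 and 4 stood apart. Summed signals of 15 granulosa and cumulus cell markers, the cells that surround the oocyte, were 1333, 990.3, 16200 and 13930 in mutant replicates 1 to 4, against 1180 to 1735 in wild type samples, with 10, 5, 13 and 13 of the 15 above the bound in the mutants and 7 to 12 in wild type. None of the 15 was under the bound on all arrays. The bound differed by array, so these counts are not alike between samples. It was 27.24, 37.71, 14.74 and 16.15 in mutant replicates 1 to 4, against 16.35 to 31.01 in wild type samples. The wild type sample with 12 above it was replicate 4, where the bound was 16.35. Hsd3b1, a steroid-making enzyme, was the brightest marker in mutant replicates 3 and 4. Its signals were 20.1, 50.5, 8835 and 6889 in mutant replicates 1 to 4, against 32.7, 9.7, 7 and 9.3 in wild type replicates 1 to 4. Most of the rest of the sums in replicates 3 and 4 came from Inha (2619 and 2364) and Inhba (2516 and 2383). Inhbb, Fshr, Star, Foxl2, Tnfaip6 and Vcan were also above every wild type sample there, and Has2 in replicate 4 only. Cyp11a1, Amh, Nr5a2 and Ptgs2 lay within the wild type range, and Ptx3 below it. Summed signals of 8 blood and leukocyte markers were 392.5, 420.4, 835.6 and 886.8 in the mutants, against 325.6 to 418.8 in wild type. Most of that rise was in Cd52, at 360.4 and 453.1 in mutant replicates 3 and 4, against 19.7 to 48.2 in wild type. Lyz2 had 188.8 and 192 there, against 83.8 to 125.9. Ptprc was just above the wild type range, Laptm5 in replicate 3 only, and Hba-a1 and Tyrobp lay within it. S100a8 and S100a9 were under the bound on all arrays. Of 16 oocyte and 2-cell embryo markers, 15 were above the bound in every sample, with sums of 30720, 37140, 19820 and 18060 in the mutants, against 15180 to 22180 in wild type. Markers of oviduct epithelium summed to 616.2 to 996 in mutant and 621.5 to 911.8 in wild type samples, and those of sperm to 184.1 to 346.2 in mutant and 237.2 to 287.3 in wild type samples. The hybridisation spike-ins stood at 4.81, 3.37, 1.24 and 0.713 times the wild type mean in mutant replicates 1 to 4, against 0.749 to 1.23 in wild type samples. The ratio of 3′ to 5′ actin signal was 12.88, 15.05, 7.036 and 4.881 in the mutants, against 16.3 to 21.15 in wild type. The same ratio for Gapdh lay close together in the mutants, at 6.629, 6.755, 6.944 and 7.334, against 8.579 to 10.13 in wild type. The part of these differences in the results on splicing genes was not tested, and the main results are also given for each mutant pair against the same 4 wild type samples.

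Over all 8 samples most splicing genes did not pass the test. Of the 65 tested, 1 rose in Brg1 mutant embryos (Lsm7), 4 fell (Hnrnpd, Rbm17, Lsm2 and Prpf38a) and 60 did not pass (limma, Benjamini-Hochberg adjusted p under 0.05 over all probe sets tested). Calls among all 11934 tested genes made up 7.04% in either direction, 3.01% higher and 4.03% lower, so the 7.69% of splicing genes called was near the background. An unadjusted p under 0.05 was found for 15 members (23.1%), against 27.0% of all tested genes. The log2 changes were negative for 41 members and positive for 24, against 6345 negative and 5589 positive over all tested genes. Their median was -0.18, against -0.05 over all tested genes, and the median size without sign was 0.386, against 0.442. With other scalings the median of all tested genes moved to -0.22 (median centring), -0.19 (centring on the 75th percentile) and -0.13 (quantile normalization), beside -0.36, -0.32 and -0.13 for the members, so under quantile normalization the list's median was that of all genes. The plot of changes by role shows each tested gene.

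**Figure D1:**
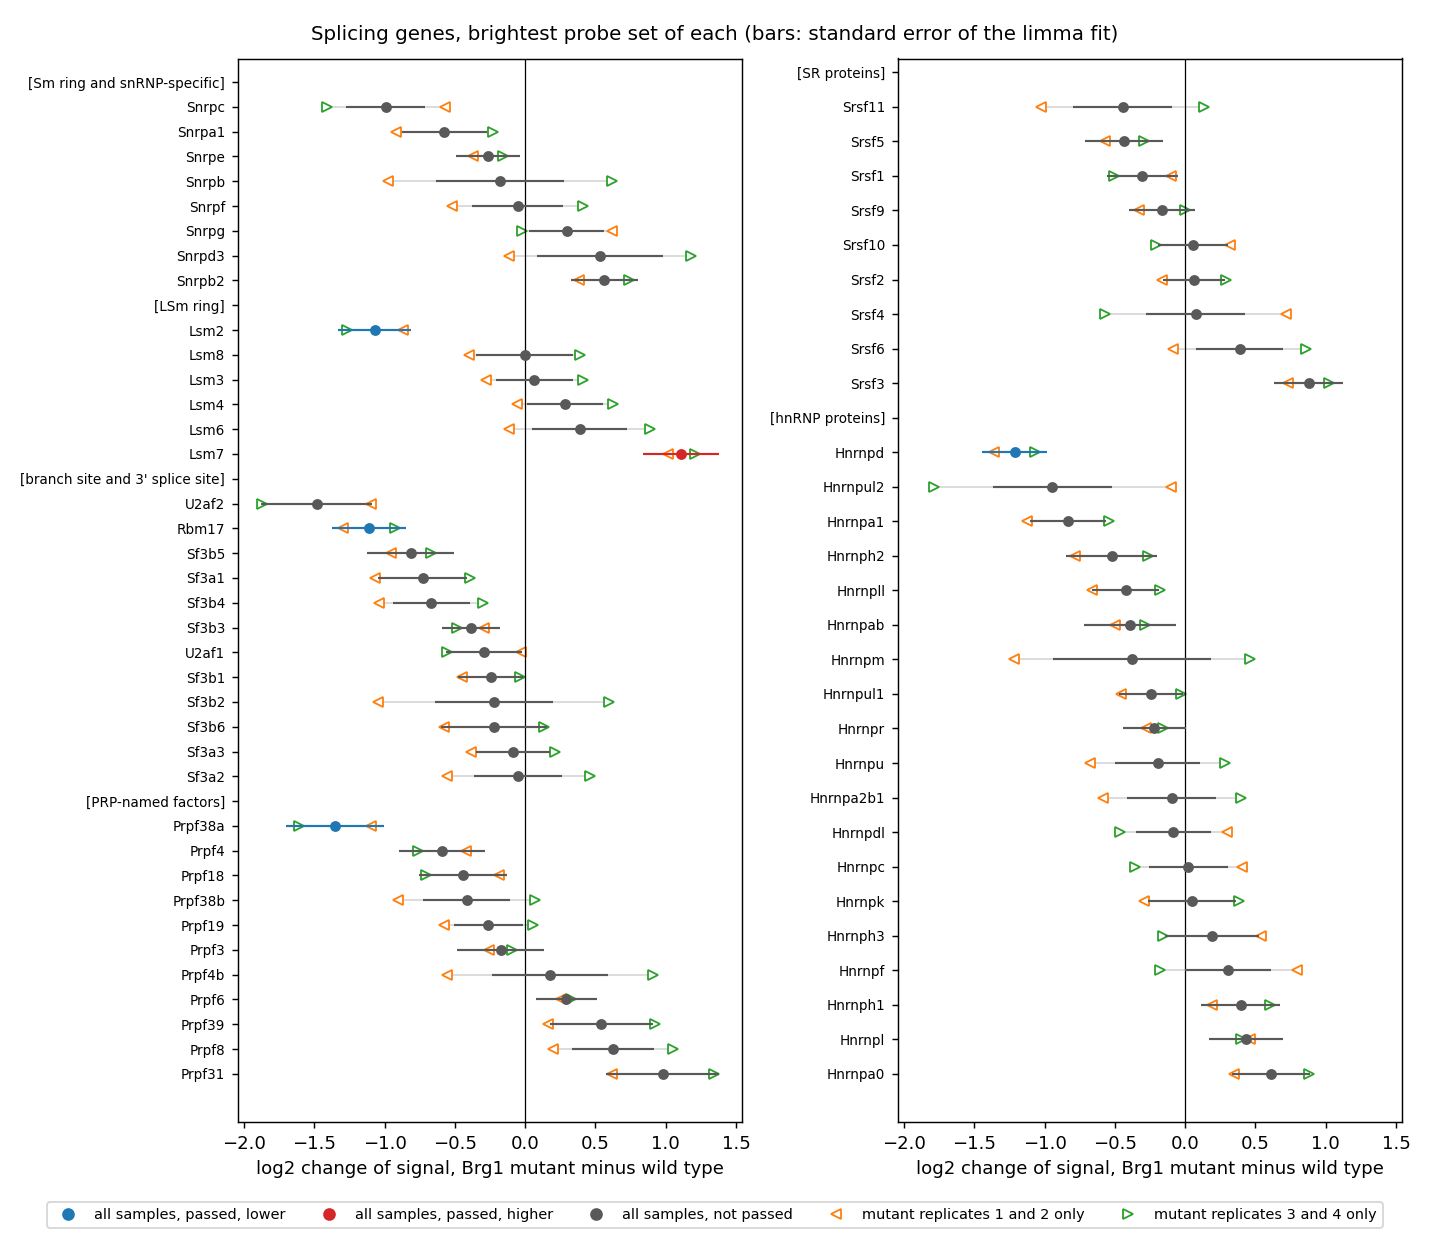
Log2 change of signal, Brg1 mutant minus wild type, for the 65 tested splicing genes, sorted within role groups. Filled points with bars are the change over all samples and its standard error, coloured where the gene passed the test (1 higher, 4 lower), and open triangles are the changes of mutant replicates 1 and 2 and of mutant replicates 3 and 4 against the same 4 wild type samples. The filled points of all 12 genes of branch site and 3′ splice site recognition lie left of 0. For many genes the triangles lie on opposite sides of 0.

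The member with the smallest adjusted p was Hnrnpd on chromosome 5, which encodes an hnRNP protein that also binds AU-rich elements of mRNAs and affects their decay. Hnrnpd had signals of 402, 258, 369 and 423 in mutant replicates 1 to 4, against 752, 884, 884 and 794 in wild type replicates 1 to 4, that is 363 ± 73.5 in mutant samples and 828 ± 66.4 in wild type samples (SD, n = 4 each). Every mutant sample was below every wild type sample, and mutant replicate 2 was the lowest. Hnrnpd fell 2.32-fold, a log2 change of -1.21 ± 0.23 (SE; adjusted p = 0.0194), with -1.36 for mutant replicates 1 and 2 (adjusted p = 0.0186) and -1.07 for mutant replicates 3 and 4 (adjusted p = 0.00143). Its adjusted p was 0.0523 to 0.0658 when mutant replicate 3 or any 1 of the wild type samples was left out.

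Rbm17 on chromosome 2 encodes a regulator that binds branch site factors and acts on the choice of 3′ splice sites. Its signals were 726, 363, 604 and 727 in mutant replicates 1 to 4, against 1288, 1244, 1338 and 1167 in wild type replicates 1 to 4, that is 605 ± 172 in mutant samples and 1259 ± 72.2 in wild type samples (SD, n = 4 each). The groups did not overlap, the wild type samples lay close together and mutant replicate 2 again was the lowest. Rbm17 fell 2.16-fold, a log2 change of -1.11 ± 0.26 (SE; adjusted p = 0.0354), with -1.29 for mutant replicates 1 and 2 (adjusted p = 0.0297) and -0.93 for mutant replicates 3 and 4 (adjusted p = 0.00224). On its other tested probe set, which did not pass, the log2 change was -0.44. Without mutant replicate 3, mutant replicate 4 or any 1 wild type sample, the adjusted p of Rbm17 was 0.0611 to 0.106.

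Prpf38a on chromosome 4 encodes a protein that joins the spliceosome shortly before its activation. Its signals were 551, 201, 265 and 205 in mutant replicates 1 to 4, against 915, 512, 839.6 and 649 in wild type replicates 1 to 4, that is 305 ± 166 in mutant samples and 729 ± 183 in wild type samples (SD, n = 4 each). Here the groups overlapped: mutant replicate 1 was above wild type replicate 2, while the other mutants were below every wild type sample. Prpf38a fell 2.55-fold, a log2 change of -1.35 ± 0.35 (SE; adjusted p = 0.0463), with -1.09 for mutant replicates 1 and 2 (adjusted p = 0.125) and -1.61 for mutant replicates 3 and 4 (adjusted p = 0.00131). Without mutant replicate 1 its adjusted p was 0.0101, and without any other single sample it was 0.0555 to 0.137. It was 0.0584 to 0.0637 with no filter, no intensity trend or quantile normalization.

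Lsm2 and Lsm7, on chromosomes 17 and 10, encode subunits shared by the nuclear LSm ring of U6 snRNA and the cytoplasmic LSm ring that acts in mRNA decapping, and they moved in opposite directions. Lsm2 had signals of 60.6, 54.7, 42.3 and 45.4 in mutant replicates 1 to 4, against 119.9, 103, 98.8 and 100.3 in wild type replicates 1 to 4, that is 50.8 ± 8.42 in mutant samples and 106 ± 9.72 in wild type samples (SD, n = 4 each). Every mutant sample was below every wild type sample, mutant replicates 3 and 4 more so. Lsm2 fell 2.1-fold, a log2 change of -1.07 ± 0.26 (SE; adjusted p = 0.0382), with -0.87 for mutant replicates 1 and 2 (adjusted p = 0.0788) and -1.26 for mutant replicates 3 and 4 (adjusted p = 0.00288). Lsm7 had signals of 398, 282, 346 and 424 in mutant replicates 1 to 4, against 196, 118, 147 and 224 in wild type replicates 1 to 4, that is 363 ± 62.5 in mutant samples and 171 ± 48.0 in wild type samples (SD, n = 4 each). Every mutant sample was above every wild type sample. Lsm7 rose 2.16-fold, a log2 change of 1.11 ± 0.27 (SE; adjusted p = 0.039), with 1.01 for mutant replicates 1 and 2 (adjusted p = 0.0863) and 1.21 for mutant replicates 3 and 4 (adjusted p = 0.00862). Without mutant replicate 3, mutant replicate 4 or any 1 wild type sample, neither passed, with an adjusted p of 0.0792 to 0.126 for Lsm2 and 0.0715 to 0.113 for Lsm7. Lsm7 also did not pass with median centring, 75th percentile centring, quantile normalization, no filter or no intensity trend (0.0507 to 0.0809), and Lsm2 did not with no filter (0.0623).

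**Figure D2:**
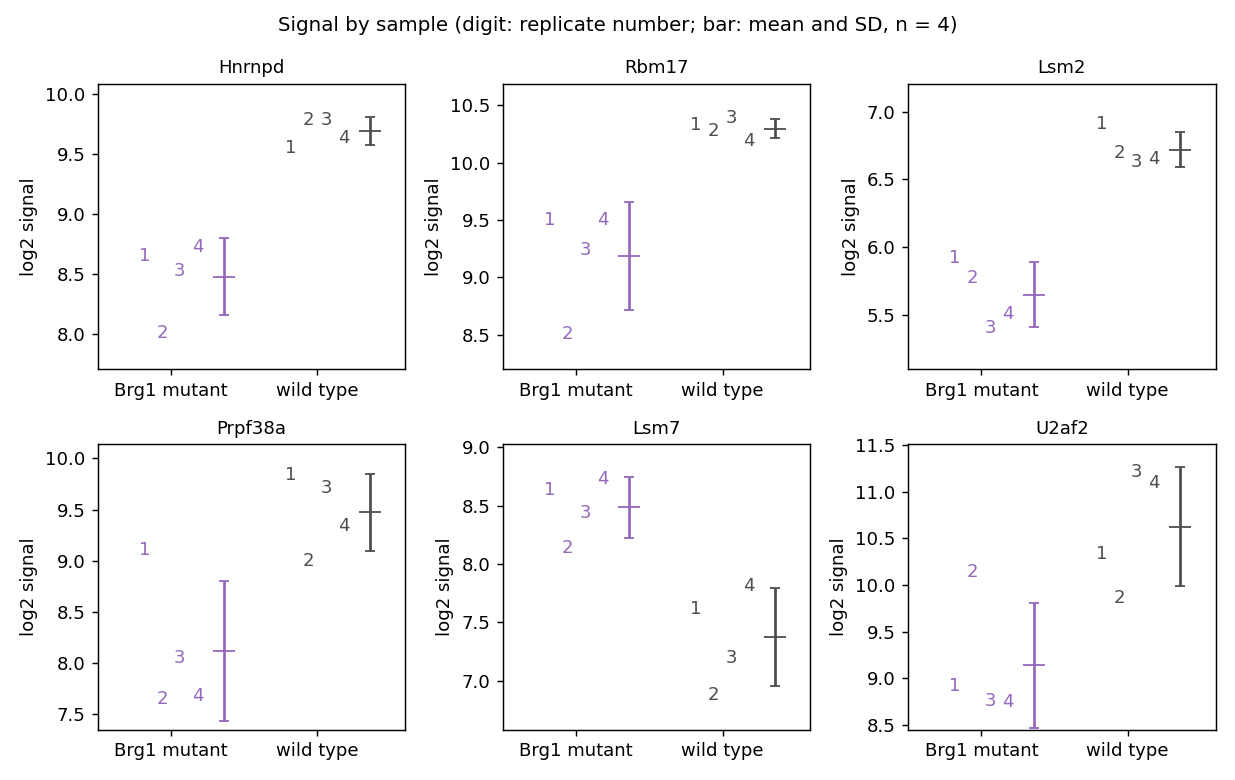
Log2 signal of the 5 splicing genes that passed the test and of U2af2 (adjusted p = 0.0516) in each sample, with Brg1 mutant samples left of wild type samples in each panel. Digits are replicate numbers and the bar is the mean with its SD (n = 4). The groups are apart for Hnrnpd, Rbm17, Lsm2 and Lsm7, while 1 mutant sample lies among the wild type values for Prpf38a (replicate 1) and U2af2 (replicate 2).

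The sequences before the start sites of 3 of the genes that fell, and of Srsf3 and Srsf2, SR protein genes with a dimmer probe set that rose and fell, in that order (described further on), are shown because calls turn on these genes. Each is the 250 bases before the annotated start in the RefSeq table of GRCm38.p6, which gives 1 start for each of these genes, written 5′ to 3′ on the gene's strand. Capitals mark matches, on either strand, to CCAAT, to the Sp1 box GGGCGG, to the ETS core CCGGAAG, to the NRF1 core TGCGCA or to TATAAA.
Hnrnpd, chr5:99978939-99979188, minus strand: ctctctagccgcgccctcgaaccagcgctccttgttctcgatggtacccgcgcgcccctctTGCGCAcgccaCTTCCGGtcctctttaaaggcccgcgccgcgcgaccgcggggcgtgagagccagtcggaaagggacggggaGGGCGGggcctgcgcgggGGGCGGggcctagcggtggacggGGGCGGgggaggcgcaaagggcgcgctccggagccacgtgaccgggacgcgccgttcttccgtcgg
Rbm17, chr2:11603200-11603449, minus strand: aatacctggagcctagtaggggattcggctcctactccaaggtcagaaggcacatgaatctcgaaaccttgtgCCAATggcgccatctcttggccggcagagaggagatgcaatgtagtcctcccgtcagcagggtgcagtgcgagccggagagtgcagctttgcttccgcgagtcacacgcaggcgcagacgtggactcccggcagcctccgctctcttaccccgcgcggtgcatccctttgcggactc
Prpf38a, chr4:108579337-108579586, minus strand: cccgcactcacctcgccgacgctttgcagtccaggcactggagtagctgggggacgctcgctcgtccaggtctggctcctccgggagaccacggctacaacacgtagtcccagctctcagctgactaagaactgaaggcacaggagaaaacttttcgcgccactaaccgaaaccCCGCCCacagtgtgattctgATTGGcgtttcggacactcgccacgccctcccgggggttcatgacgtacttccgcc
Srsf2, chr11:116853095-116853344, minus strand: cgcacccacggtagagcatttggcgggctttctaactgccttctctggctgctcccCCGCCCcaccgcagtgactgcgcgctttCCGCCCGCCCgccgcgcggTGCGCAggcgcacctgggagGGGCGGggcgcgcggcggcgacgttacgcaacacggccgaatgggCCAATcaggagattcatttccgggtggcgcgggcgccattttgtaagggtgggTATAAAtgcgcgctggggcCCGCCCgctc
Srsf3, chr17:29032410-29032659, plus strand: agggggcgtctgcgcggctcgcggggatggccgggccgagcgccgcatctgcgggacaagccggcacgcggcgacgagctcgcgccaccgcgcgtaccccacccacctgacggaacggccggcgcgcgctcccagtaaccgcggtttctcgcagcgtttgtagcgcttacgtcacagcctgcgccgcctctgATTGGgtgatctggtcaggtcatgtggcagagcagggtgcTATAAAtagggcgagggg

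The window of Hnrnpd holds 3 Sp1 boxes, 1 ETS core and 1 NRF1 core, and no TATAAA. That of Rbm17 holds 1 CCAAT, and that of Prpf38a holds 1 CCAAT and 1 Sp1 box. Srsf2 has 5 Sp1 boxes, of which a pair overlap each other, with 1 match each to CCAAT, to TATAAA and to the NRF1 core. Srsf3 has 1 CCAAT and 1 TATAAA. Their GC content is 60.8% (Rbm17) to 74.4% (Hnrnpd). Over the 78 windows of the 59 splicing genes in the table, the Sp1 box was found in 65.4%, against 32.7% of all 32851 windows, CCAAT in 47.4% against 33.8%, the ETS core in 26.9% against 6.91% and the NRF1 core in 26.9% against 6.43%. TATAAA was in 5.13% of the splicing gene windows, against 12.4% of all windows, and the cAMP response element TGACGTCA, which none of the printed windows holds, in 2.56% against 1.55%. These are matches of letters and are no evidence of binding.

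Among the proteins of the Sm ring and of single snRNPs, 0 of 8 genes passed (limma; 2 had an unadjusted p under 0.05), and the median log2 change was -0.12. Snrpc, a U1 snRNP protein that helps to bind the 5′ splice site, came closest. Its signals were 1936, 1263, 842 and 907 in mutant replicates 1 to 4, against 2343, 2538, 2238 and 2195 in wild type replicates 1 to 4. Every mutant sample was below every wild type sample, with replicates 3 and 4 the lowest. The log2 change was -0.99 ± 0.28 (SE; adjusted p = 0.0609), with -0.57 for mutant replicates 1 and 2 (adjusted p = 0.146) and -1.41 for mutant replicates 3 and 4 (adjusted p = 0.000148). Snrpb2, a U2 snRNP protein, had 382 to 635 in mutant samples and 307 to 414 in wild type samples, a log2 change of 0.56 (adjusted p = 0.169), and its partner on the same snRNP, Snrpa1, had 607 to 1336 in mutant samples and 1198 to 2018 in wild type samples, a change of -0.58 (adjusted p = 0.264). Both overlapped between groups. Snrpb, a protein of the Sm ring itself, had signals of 528, 325, 1232 and 1262 in mutant replicates 1 to 4, against 975, 1264, 571 and 622 in wild type replicates 1 to 4. Mutant replicates 1 and 2 were below the lowest wild type sample, and replicates 3 and 4 were close to the highest. Its log2 change was -0.18 (adjusted p = 0.847), with -0.97 for mutant replicates 1 and 2 (adjusted p = 0.13) and 0.62 for mutant replicates 3 and 4 (adjusted p = 0.139). Snrpd3 had 317 to 1094 in mutant samples and 213 to 694 in wild type samples, a log2 change of 0.53 (adjusted p = 0.505), and Snrpe, Snrpf and Snrpg did not pass either, with changes of -0.26, -0.05 and 0.30. For the pairs, 0 of the 8 passed with replicates 1 and 2 (4 had an unadjusted p under 0.05), and 2 were higher and 1 lower with replicates 3 and 4. Over all tested genes these fits called 7.44% and 43.5%.

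Of the 6 tested LSm ring genes, Lsm7 rose, Lsm2 fell and 4 did not pass. Their median log2 change was 0.17, which became -0.002 with median centring. Lsm4 had signals of 319, 203, 444 and 374 in mutant replicates 1 to 4, against 256, 279.8, 279.6 and 244 in wild type replicates 1 to 4, a log2 change of 0.28 (adjusted p = 0.558). Lsm6 had 93.9 to 257 in mutant samples and 107 to 154 in wild type samples, a log2 change of 0.39 (adjusted p = 0.519). Lsm3 and Lsm8 had changes of 0.06 and -0.004. Lsm5 was not analysed here. For the pairs, 0 of 6 passed with mutant replicates 1 and 2 (2 had an unadjusted p under 0.05) and 4 of 6 with replicates 3 and 4, namely Lsm7, Lsm6 and Lsm4 higher and Lsm2 lower. With replicates 3 and 4, 43.5% of all tested genes were called, 19.2% higher and 24.4% lower, and the difference of the LSm genes from these was not tested. By sample, the median of the 6 genes relative to the wild type mean was 0.22, -0.44, 0.58 and 0.56 on the log2 scale in mutant replicates 1 to 4, against -0.11 to 0.07 in wild type samples.

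The 12 genes of branch site and 3′ splice site recognition were the group with the lowest median. All 12 had negative log2 changes, with a median of -0.34 (-0.52 with median centring, -0.48 with 75th percentile centring, and -0.31 with 11 of 12 negative under quantile normalization). Over all tested genes 53.2% were negative. With mutant replicates 1 and 2 all 12 were negative, against 47.4% of all tested genes. With replicates 3 and 4 it was 8 of the 12 (66.7%, against 57.9%). Rbm17 passed and the other 11 did not, while 5 of the 12 (41.7%) had an unadjusted p under 0.05, against 27.0% of all tested genes. In 4 of the 12, or 33.3%, every mutant sample was below every wild type sample, against 10.6% of all tested genes. By sample, the median of the 12 relative to the wild type mean was -0.48, -0.97, -0.28 and -0.36 on the log2 scale in mutant replicates 1 to 4, against -0.10 to 0.07 in wild type samples. Mutant replicate 2 was the lowest of all 8 arrays for 9 of the 12, against 16.6% of all tested genes. The median mean log2 signal of the 12 was 9.81, against 7.36 for all tested genes, so this share is not matched for brightness.

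U2af2, the large subunit of the factor that binds the polypyrimidine tract before the 3′ splice site, had the most negative change of all members but did not pass. Its signals were 483, 1128, 432 and 429 in mutant replicates 1 to 4, against 1284, 932, 2375 and 2174 in wild type replicates 1 to 4, that is 618 ± 341 in mutant samples and 1691 ± 693 in wild type samples (SD, n = 4 each). Mutant replicates 1, 3 and 4 were below every wild type sample, and mutant replicate 2 was above wild type replicate 2. The log2 change was -1.48 ± 0.40 (SE; adjusted p = 0.0516), with -1.09 for mutant replicates 1 and 2 (adjusted p = 0.153) and -1.87 for mutant replicates 3 and 4 (adjusted p = 0.00268). Its partner U2af1, which contacts the AG at the intron's end, had 1198 to 2291 in mutant samples and 1448 to 2353 in wild type samples and a log2 change of -0.29 (adjusted p = 0.541).

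The SF3A and SF3B complexes hold the U2 snRNP on the branch site, and none of their genes was among the calls over all samples. Sf3b5, a small SF3B subunit, had signals of 1466, 730.4, 1163 and 1369 in mutant replicates 1 to 4, against 3181, 1957, 1599 and 1632 in wild type replicates 1 to 4. The groups did not overlap, though the wild type samples spread widely, and the log2 change was -0.81 ± 0.31 (SE; adjusted p = 0.133). Sf3b1, the subunit that contacts the branch site and its bound U2 snRNA, had signals of 1512, 1012, 1649 and 1647 in mutant replicates 1 to 4, against 1805, 1632, 1776 and 1562 in wild type replicates 1 to 4. Mutant replicate 2 was the lowest, the other mutants lay within or just under the wild type range, and the log2 change was -0.24 (adjusted p = 0.558). Sf3b4 had 399 to 873 in mutant samples and 814 to 1140 in wild type samples, a log2 change of -0.67 (adjusted p = 0.158), with -1.04 for mutant replicates 1 and 2 (adjusted p = 0.0386) and -0.30 for mutant replicates 3 and 4 (adjusted p = 0.243). Sf3a1 and Sf3b3, named here after their values were seen, had every mutant sample below every wild type sample on their brightest probe sets. The log2 changes there were -0.73 (adjusted p = 0.183) and -0.39 (adjusted p = 0.276). On the other tested probe set of each the change was positive and did not pass. It was 0.35 (adjusted p = 0.465) for Sf3a1 and 0.81 (adjusted p = 0.171) for Sf3b3. On its brightest probe set only, Sf3b2, also named after its values were seen, passed in opposite directions in the 2 pairs. Its signals were 855, 673, 2055 and 2731 in mutant replicates 1 to 4, against 1601, 1630.3, 1309 and 1757 in wild type replicates 1 to 4. Mutant replicates 1 and 2 were below, and replicates 3 and 4 above, every wild type sample, with -1.05 for mutant replicates 1 and 2 (adjusted p = 0.0275) and 0.60 for mutant replicates 3 and 4 (adjusted p = 0.0298), and over all samples the log2 change was -0.22 (adjusted p = 0.786). The other tested probe sets of Sf3b2 passed in neither pair. Their adjusted p was 0.076 to 0.833 with replicates 1 and 2 and 0.49 to 0.94 with replicates 3 and 4. For the group of 12, mutant replicates 1 and 2 gave 3 lower and 0 higher (25.0% called, against 7.44% of all tested genes). Replicates 3 and 4 gave 2 lower and 1 higher (25.0%, against 43.5%).

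Of the 11 tested genes named after yeast PRP factors, Prpf38a fell and 10 did not pass, with a median log2 change of -0.17. Prpf8, the large U5 snRNP protein at the heart of the catalytic centre, had signals of 208, 150.2, 322 and 316 in mutant replicates 1 to 4, against 175, 147, 155 and 141 in wild type replicates 1 to 4. Mutant replicates 1, 3 and 4 were above every wild type sample, while mutant replicate 2 lay within the wild type range. The log2 change was 0.62 (adjusted p = 0.205), with 0.20 for mutant replicates 1 and 2 (adjusted p = 0.67) and 1.05 for mutant replicates 3 and 4 (adjusted p = 0.0031). Prpf31, which holds the U4/U6 and U5 snRNPs together, had 45.8 to 124 in mutant samples and 25.1 to 60.7 in wild type samples, a log2 change of 0.98 (adjusted p = 0.159). On its other tested probe set the change was -0.26 (adjusted p = 0.734). Prpf4, a U4/U6 snRNP protein, had 93.7 to 167 in mutant samples and 126 to 256 in wild type samples, a log2 change of -0.59 (adjusted p = 0.254). Prpf19, a ubiquitin ligase of the spliceosome, had signals of 2525, 2468, 4117 and 3639 in mutant replicates 1 to 4, against 3793, 3309, 3999 and 3850.4 in wild type replicates 1 to 4. Mutant replicates 1 and 2 were below every wild type sample and replicates 3 and 4 were within or above their range, with a log2 change of -0.26 (adjusted p = 0.553). For the pairs, 0 passed with mutant replicates 1 and 2 (3 had an unadjusted p under 0.05), and 3 were higher and 1 lower with replicates 3 and 4 (36.4%, against 43.5% of all tested genes).

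SR proteins, which bind exonic enhancers and recruit the splice site factors, gave 0 calls among 9 genes on their brightest probe sets (limma; 1 had an unadjusted p under 0.05). The median log2 change was 0.06, which turned to -0.12 with median centring and -0.09 with 75th percentile centring. On dimmer probe sets, 4 SR genes passed: Srsf3 rose, and Srsf1, Srsf2 and Srsf10 fell. These genes had 6 (Srsf3), 5 (Srsf1), 4 (Srsf2) and 4 (Srsf10) tested probe sets, and each adds a chance of a call. Of every tested probe set in the series, 6.56% were called. The share of all genes that pass on a dimmer probe set is not given here, so the 4 are not read as particular to SR genes.

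Srsf3, the smallest SR protein, rose on 1 of its dimmer probe sets. On the brightest its signals were 558, 424, 597 and 599 in mutant replicates 1 to 4, against 383, 269, 224 and 323 in wild type replicates 1 to 4. Every mutant sample was above every wild type sample, with a log2 change of 0.88 ± 0.25 (SE; adjusted p = 0.0582). Probe set 1416151_at of Srsf3 had signals of 48.7, 63.1, 157 and 218 in mutant replicates 1 to 4, against 17.6, 14.4, 11 and 20.7 in wild type replicates 1 to 4, with 3 of the 4 wild type values under the background bound. Its mean log2 signal was 6.66 in mutant samples and 3.95 in wild type samples, so it reached the filter's limit of 5.25 only through the mutants, and no fold or test is given for it. Probe set 1434512_x_at rose 2.46-fold, with 318 to 751 in mutant samples and 187 to 248 in wild type samples and a log2 change of 1.30 ± 0.31 (SE; adjusted p = 0.0362). The call of 1434512_x_at was lost without mutant replicate 3, mutant replicate 4 or any 1 wild type sample (adjusted p of 0.0823 to 0.11). Leaving 1416151_at aside, the changes of the tested probe sets of Srsf3 ran from 0.24 to 1.30, and 4 of these 5 did not pass.

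Srsf1, Srsf2 and Srsf10 each fell on 1 probe set. Srsf1, the founding member of the family, had a log2 change of -0.30 (adjusted p = 0.491) on its brightest probe set. Its probe set 1452430_s_at had signals of 415, 194, 162 and 201 in mutant replicates 1 to 4, against 562, 1172, 799.8 and 837 in wild type replicates 1 to 4. All mutant samples were below all wild type samples, and this probe set of Srsf1 fell 3.6-fold, a log2 change of -1.85 ± 0.34 (SE; adjusted p = 0.0179). All 5 tested probe sets of Srsf1 had negative changes. Srsf2, which marks nuclear speckles, had signals of 619.7, 693, 941 and 853 in mutant replicates 1 to 4, against 788, 765, 676 and 711 in wild type replicates 1 to 4 on its brightest probe set, with overlapping groups and a log2 change of 0.06 (adjusted p = 0.892). Its probe set 1452439_s_at had 538, 362, 200.5 and 176 in mutant replicates 1 to 4, against 771, 1156, 1221 and 1392 in wild type replicates 1 to 4. There every mutant sample was below every wild type sample, and it fell 3.85-fold, a log2 change of -1.94 ± 0.37 (SE; adjusted p = 0.0194), with -1.33 for mutant replicates 1 and 2 (adjusted p = 0.0297) and -2.56 for mutant replicates 3 and 4 (adjusted p = 8.53e-05). The other tested probe sets of Srsf2 had log2 changes of -1.02 (adjusted p = 0.066) and -0.36 (adjusted p = 0.74). Srsf10, an SR protein that acts as a repressor when it is dephosphorylated, had a log2 change of 0.06 (adjusted p = 0.919) on its brightest probe set. Its probe set 1418527_a_at had 444, 225, 222 and 329.9 in mutant replicates 1 to 4, against 982, 676, 1153 and 1090.5 in wild type replicates 1 to 4. The groups were far apart there, and it fell 3.27-fold, a log2 change of -1.71 ± 0.29 (SE; adjusted p = 0.0152). These calls were lost, with an adjusted p of 0.0505 to 0.0641 for Srsf1 without mutant replicate 3 or wild type replicate 2, 3 or 4, of 0.0519 to 0.0675 for Srsf2 without mutant replicate 3 or any 1 wild type sample, and of 0.0555 to 0.0603 for Srsf10 without wild type replicate 1, 3 or 4.

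**Figure D3:**
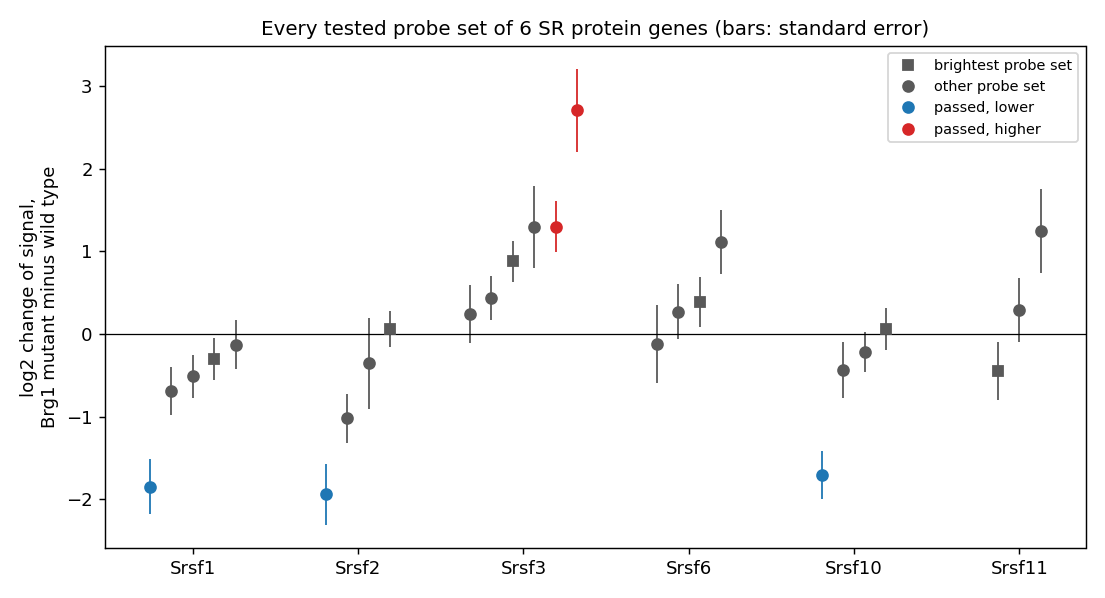
Log2 change of signal, Brg1 mutant minus wild type, for every tested probe set of the 6 SR protein genes with several, with standard errors. Squares are each gene's brightest probe set, none of which passed, while dimmer probe sets of Srsf1, Srsf2 and Srsf10 passed on the lower side and of Srsf3 on the higher side. The topmost point of Srsf3 is the probe set that reached the filter's limit only through the mutants, with 3 of 4 wild type values under the background bound.

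Where a gene had several tested probe sets, their changes often had both signs, in splicing genes and in all genes. Of 40 splicing genes with several, 21 (52.5%) had changes of both signs, against 42.2% of 4698 genes, and the median spread between the highest and lowest change of a gene was 0.61, against 0.58. Over all 152 tested probe sets of the members, 3 were higher (1416151_at of Srsf3 included) and 8 lower, 7.24% in all, against 6.56% of every tested probe set. Of the 87 that were not their gene's brightest, 6 passed, in 5 genes, with 1416151_at again included. Which exons or ends of the transcripts these probe sets cover was not examined, and names ending in _s_at or _x_at mark probe sets that can match more than 1 transcript. Among the rest of the SR genes, Srsf5 had a log2 change of -0.43 (adjusted p = 0.365), Srsf11 of -0.44 (adjusted p = 0.47) and Srsf6 of 0.39 (adjusted p = 0.471). The other tested probe sets of Srsf11 had positive changes, 1.25 (adjusted p = 0.159) and 0.29 (adjusted p = 0.694). Srsf6 had signals of 828, 1152, 2206 and 1598 in mutant replicates 1 to 4, against 965, 1157, 876 and 1176 in wild type replicates 1 to 4. Only mutant replicates 3 and 4 stood above the wild type range, with -0.08 for mutant replicates 1 and 2 (adjusted p = 0.859) and 0.86 for mutant replicates 3 and 4 (adjusted p = 0.00868). For the pairs, 0 of the 9 brightest SR probe sets passed with mutant replicates 1 and 2 (3 had an unadjusted p under 0.05), and 2 were higher and 2 lower with replicates 3 and 4 (44.4%, against 43.5% of all tested genes).

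The 19 hnRNP genes encode abundant nuclear RNA binding proteins, many of which repress splice sites. Hnrnpd fell and 18 did not pass, with a median log2 change of -0.20. Hnrnpa1, which represses the use of exons, had signals of 1191, 803, 1557 and 1378 in mutant replicates 1 to 4, against 2080.2, 1636, 2247 and 2696 in wild type replicates 1 to 4. Mutant replicate 2 was the lowest and every mutant was below every wild type sample, with a log2 change of -0.83 ± 0.27 (SE; adjusted p = 0.09) and -1.12 for mutant replicates 1 and 2 (adjusted p = 0.0357) and -0.54 for mutant replicates 3 and 4 (adjusted p = 0.0629). Hnrnpul2, a relative of Hnrnpu, split by pair. Its signals were 3022, 3038, 898 and 979.9 in mutant replicates 1 to 4, against 3253, 2621, 3734 and 3470.2 in wild type replicates 1 to 4. Mutant replicates 1 and 2 lay within the wild type range, and replicates 3 and 4 were below all other samples, with -0.10 for mutant replicates 1 and 2 (adjusted p = 0.797) and -1.79 for mutant replicates 3 and 4 (adjusted p = 0.000101). Its dimmer probe set 1415765_at fell 2.12-fold, with signals of 155, 188, 162 and 153 in mutant replicates 1 to 4, against 400, 208, 391 and 453 in wild type replicates 1 to 4 and a log2 change of -1.09 ± 0.28 (SE; adjusted p = 0.0452). That call of Hnrnpul2 was kept without mutant replicate 2 or wild type replicate 2, and without any other single sample the adjusted p was 0.0541 to 0.139.

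Other core hnRNP genes did not pass. Hnrnpk, which binds C-rich RNA, had signals of 3948, 2361, 5937 and 3990.2 in mutant replicates 1 to 4, against 4394, 4715, 3132 and 2988 in wild type replicates 1 to 4. The groups overlapped fully and the log2 change was 0.05 (adjusted p = 0.947). Hnrnpu, a scaffold protein of nuclear chromatin and RNA, had signals of 1439.8, 912, 2199 and 2265 in mutant replicates 1 to 4, against 1772, 1884, 1869 and 1808 in wild type replicates 1 to 4. The wild type samples lay close together, with mutant replicates 1 and 2 below them and 3 and 4 above, and the log2 change was -0.20 (adjusted p = 0.737). Hnrnpa0 had 370.3 to 669 in mutant samples and 247 to 428 in wild type samples and a log2 change of 0.61 (adjusted p = 0.197). Hnrnpl, named after its values were seen, had every mutant above every wild type sample, at 64.8 to 92.4 in mutant samples and 49.1 to 59.6 in wild type samples, and did not pass either, with a log2 change of 0.43 (adjusted p = 0.337). In mutant replicate 2, Hnrnpm, also named after its values were seen, had a signal of 91.9, against 357 to 705 in the other 7 samples. For the pairs, mutant replicates 1 and 2 gave 1 higher and 2 lower (15.8%, against 7.44% of all tested genes), and replicates 3 and 4 gave 2 higher and 3 lower (26.3%, against 43.5%).

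Counted over all members, every mutant sample was above every wild type sample in 3 genes (4.62%, against 8.1% of all tested genes) and below in 8 (12.3%, against 10.6%). The higher ones were Srsf3, Lsm7 and Hnrnpl, and the lower ones Sf3b3, Snrpc, Hnrnpd, Hnrnpa1, Sf3b5, Sf3a1, Lsm2 and Rbm17. With mutant replicates 1 and 2 alone, 1 member was higher and 5 lower (9.23%, against 7.44% of all tested genes, 3.86% higher and 3.58% lower). With replicates 3 and 4 alone, 13 were higher and 10 lower (35.4%, against 43.5%, 19.2% higher and 24.4% lower). Both fits share the 4 wild type samples, and the difference between the pairs was not tested.

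The pairs also differed in where the members lay as a whole. With replicates 1 and 2 the median log2 change of the 65 genes was -0.37, against 0.04 over all tested genes, and with replicates 3 and 4 it was -0.02, against -0.19. By sample, the members' median relative to the wild type mean was -0.11, -0.55, 0.007 and 0.05 on the log2 scale in mutant replicates 1 to 4, against -0.05 to 0.05 in wild type samples. All tested genes had medians of 0.07, 0.07, -0.13 and -0.22 in the same mutants. Mutant replicate 2 thus stood lowest for splicing genes, and it was the lowest of all 8 arrays for 33 of them (50.8%), against 16.6% of all tested genes. That array had a background bound of 37.71, against 14.74 to 27.24 in the other mutants and 16.35 to 31.01 in wild type samples, beside the spike-in and marker values given above. The members were also brighter than all tested genes, with a median mean log2 signal of 9.44 against 7.36. The shares set against all tested genes here are therefore not matched for brightness. The part of any of these in the low splicing signals of mutant replicate 2 was not tested. Replicates 3 and 4 were both above replicates 1 and 2 for 32 members (49.2%, against 28.1%) and below them for 14 (21.5%, against 42.1%).

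**Figure D4:**
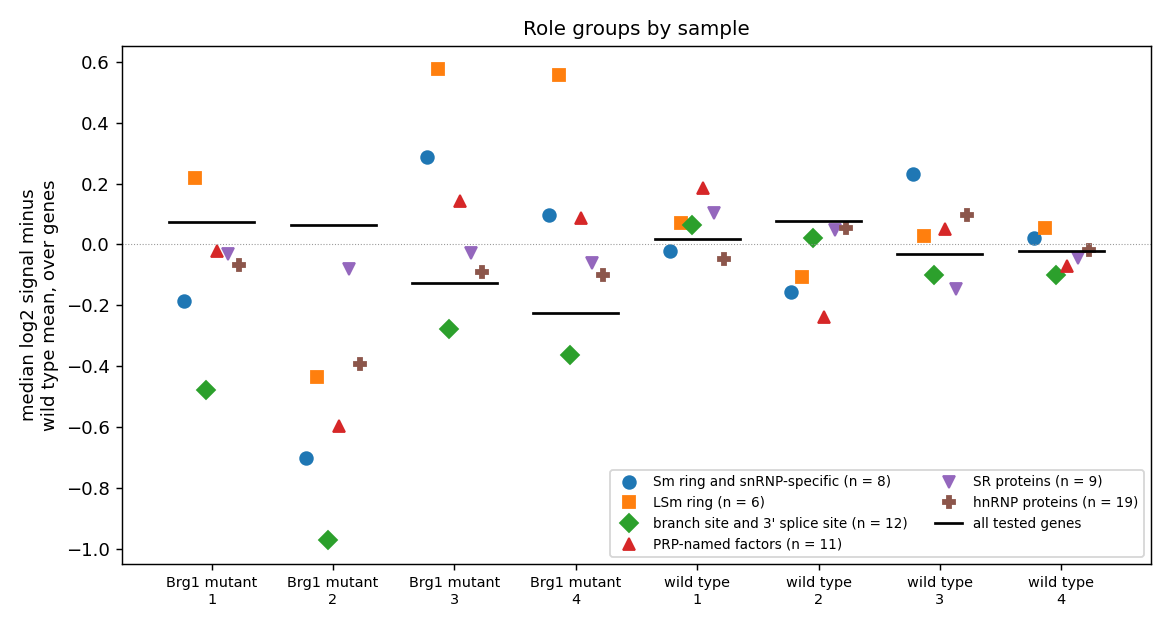
Median log2 signal of each role group in each sample relative to the gene's wild type mean, with Brg1 mutant samples left of wild type samples and all tested genes for comparison. Mutant replicate 2 is the lowest mutant for each role group, from -0.08 (SR proteins) to -0.97, and the branch site and 3′ splice site group is below 0 in all 4 mutants (-0.97 to -0.28).

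Other genes of the splicing pathway do not carry these names. Of 56 tested further spliceosome components, 0 rose, 6 fell and 50 did not pass (limma; 19 had an unadjusted p under 0.05), with a median log2 change of -0.33. That is 10.7% lower, against 4.03% lower and 3.01% higher over all tested genes, and this difference was not tested. The 4 with the smallest adjusted p were Dhx8, a helicase that releases the spliced mRNA, Rnpc3 and Snrnp25, proteins of the minor spliceosome, and Smndc1, a factor of tri-snRNP assembly. Dhx8 had signals of 196, 159, 142 and 148 in mutant replicates 1 to 4, against 491, 460.5, 449 and 408 in wild type replicates 1 to 4. The groups were far apart, and Dhx8 fell 2.82-fold, a log2 change of -1.49 ± 0.22 (SE; adjusted p = 0.00976). Log2 changes of the other 3 were -1.46 (adjusted p = 0.0184) for Rnpc3, -1.30 (adjusted p = 0.0185) for Smndc1 and -1.45 (adjusted p = 0.0207) for Snrnp25. Dhx8 passed with each single sample left out (adjusted p of at most 0.0485). Rnpc3 did not pass without any 1 wild type sample (0.0522 to 0.0678), Smndc1 without mutant replicate 3 or 4 or wild type replicate 1, 3 or 4 (0.0532 to 0.0726), or Snrnp25 without mutant replicate 3 or 4 or any 1 wild type sample (0.0503 to 0.0797).

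Of 43 tested further splicing regulators and SR protein kinases, 0 rose, 3 fell (6.98%, against 4.03% of all tested genes) and 40 did not pass (11 had an unadjusted p under 0.05), with a median log2 change of -0.18. Those that fell were the KH domain proteins Khdrbs1, by a log2 change of -1.14 (adjusted p = 0.0291), and Khsrp, -0.87 (adjusted p = 0.031), and the polypyrimidine tract binding protein Ptbp3, -1.96 (adjusted p = 0.0372). The SR-like activator Tra2b, with 1043 to 1642 in mutant samples and 745 to 847 in wild type samples, did not pass, at 0.82 (adjusted p = 0.0541). Of 21 tested genes of snRNP assembly, 1 rose (4.76%, against 3.01% of all tested genes), 5 fell (23.8%, against 4.03%) and 15 did not pass, with a median of -0.32, and the difference from all genes was not tested. Among these the nuclear cap binding subunit Ncbp1 fell, with -1.06 (adjusted p = 0.0227), as did 2 subunits of the SMN complex that loads Sm rings, Ddx20 with -1.07 (adjusted p = 0.0355) and Gemin8 with -1.10 (adjusted p = 0.0397). Lsm11, a ring protein of the U7 snRNP that processes histone mRNAs, rose, with 1.10 (adjusted p = 0.0377). All 7 of these calls were lost without mutant replicate 3, mutant replicate 4 or wild type replicate 1, 3 or 4, and all but that of Ncbp1 without wild type replicate 2, with adjusted p-values of 0.064 to 0.124.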

How the data were processed

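Total RNA from 20 embryos per sample was made into biotin-labelled cRNA and hybridised to single-colour arrays, per the labels' protocols. The deposited values are array intensities, 1 MAS5 signal per probe set, per the submitters' processing notes, which give no version. Every array had a trimmed mean (2% at each end) of 150, to within 0.000162%, and the values were therefore not rescaled. Precision is limited by how many arrays there are. Values were floored at 1 and put on a log2 scale. Control probe sets were left out, and the upper 50% of probe sets by mean log2 signal over all samples, 22518 of 45037, were tested with limma 3.58.1 in R 4.3.3 (a two-sided moderated test, lmFit and eBayes with trend), with Benjamini-Hochberg adjustment over all of them and a threshold of 0.05. The script was tested on simulated data.

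Mutant replicates 1 and 2, and 3 and 4, were also set against the 4 wild type samples apart. Errors beside log2 changes are standard errors, and folds are the changes taken back from the log2 scale. As a background bound, chosen after the data were seen, each array's 95th percentile over 27 Bacillus control probe sets was used. The platform annotation gave 1 symbol to 34945 probe sets, several to 932 and none to 9160, and all 67 members matched the RefSeq table of GRCm38.p6.

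The members and all lists (further spliceosome components, splicing regulators, snRNP assembly, and markers of granulosa and cumulus cells, oocyte and 2-cell embryo, oviduct epithelium, sperm, and blood and leukocytes) were chosen with earlier results of these data known. In each role group the text names every member that passed, the 4 with the smallest adjusted p and a few core factors, from each other list the 4 with the smallest adjusted p, and members with probe sets that disagree. Other scalings, filters, variance models, array weights, probe set choices, a replicate block and left-out samples were tried.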

Additional observations from a re-analysis of the deposited data

Results flagged for a closer look

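U2af2 in Brg1 mutant replicate 2 had a log2 signal of 10.14, far from the other 3 mutant samples, which lay between 8.746 and 8.916, and the gap made up 0.878 of the range of the 4. The 2 genotype groups of 33 named members, 66 in all, were searched for a sample this far from the rest of its group. This was 1 of 66, and chance alone marks about 1 in 20.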

How the results depend on the processing

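The count of members that rose, 1, became 0 with 75th percentile centring, median centring, quantile normalization, no filter, no intensity trend and the replicate block, 2 with the upper 30% of probe sets or with any probe set of a gene counted (an alternative chosen after the data were seen), 13 without mutant replicates 1 and 2, and 15 with array weights. The count that fell, 4, became 0 with the replicate block (limma, with 11 members at an unadjusted p under 0.05), 2 with no filter, 8 with any probe set counted, 10 without mutant replicates 1 and 2, and 13 with array weights. Without mutant replicates 1 and 2, 35.4% of the members were called, against 43.5% of all tested genes. The share of all tested genes called with array weights is not given here, so those counts are not read as a result about the members. With 1 sample left out at a time, 0 to 2 members rose and 0 to 5 fell. Both counts were 0 without mutant replicate 3 or any 1 wild type sample, where 10 to 14 members had an unadjusted p under 0.05. The members' median log2 change stayed negative throughout, at -0.02 to -0.37. Snrpb turned to 0.72 (adjusted p = 0.0393) with array weights, from -0.18 (adjusted p = 0.847). The cause was not tested. Over 658 named member settings, 569 kept their side of the threshold, 47 lost the call, 41 gained it and 1 was counted as reversed. Sign changes of members that did not pass were not counted as reversals. Snrpb, for example, had 0.62 with mutant replicates 3 and 4. The 2 mutant pairs gave opposite signs for 28 of the 65 tested members (43.1%, against 41.4% of all tested genes). Samples with the same replicate number did not deviate together, with correlations of 0.02, -0.18, -0.13 and -0.09. Of the 4 mutant samples 1, replicate 1, correlated best with its own number. These values show no sign of a pairing by number, but so few correlations could not exclude one.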
